A study of Mus musculus with 73 samples.

Results

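This report describes 9 genes of mouse jejunum that carry Hedgehog signalling between epithelium and stroma or encode forkhead factors of the underlying mesenchyme, namely *Ihh*, *Ptch1*, *Hhip*, *Gli1*, *Gli2*, *Gli3*, *Foxf1*, *Foxf2* and *Foxl1*. They were followed in 3 experiments. In the laser capture microdissection (LCM) experiment, stroma was cut from 4 zones of the crypt-villus axis, and 8 of the 9 genes had a row among the 20882 listed. In the single-cell experiment 7 of the 9 had a row among 21058 genes, and in epithelium collected after the ablation of Lgr5+ cells 7 of the 9 had one among 17399. *Foxl1*, which encodes a forkhead factor used as a marker of telocytes, was not analysed here in any experiment, and *Foxf1* was analysed in the LCM stroma only.

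The LCM and single-cell mice were C57BL/6 males on regular chow, at a labelled age of 3 months. Of the 29 LCM samples 6 were crypt stroma (3 mice), 8 stroma of the villus bottom, 7 of the center and 8 of the tip (5 mice in each villus zone), and values of a mouse within a zone were averaged. Single cells from 8 mice were sorted on 35 plates through gates labelled by EPCAM, PDGFRa, NT5E, CD31 and CD45 or as triple negative, some of them gates for pairs of adhering cells. The epithelium came from males of the Lgr5(GFP-ires-DTR/+) strain at a labelled age of 4 months, of which 4 received diphtheria toxin (DT) and 4 a mock injection 48 h before collection. All 8 of these mice carried 1 *Lgr5* allele with GFP and the DT receptor, so the toxin was directed at cells that express *Lgr5*, stem cells of the crypt as well as telocytes of the villus tip. The mouse was the replicate throughout.

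In the intestine the Hedgehog ligands are made by the epithelium and act on the mesenchyme. Patched receptors hold Smoothened (Smo) inactive until a ligand binds, after which Gli transcription factors carry the signal into the nucleus, and the pathway induces its own receptor *Ptch1*, its decoy receptor *Hhip* and *Gli1*. *Foxf1*, *Foxf2* and *Foxl1* encode forkhead factors of the gut mesenchyme that are known targets of Hedgehog signalling.

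In GRCm38, *Ihh*, the Indian hedgehog ligand, lies on chromosome 1 from 74945315 to 74951672 on the minus strand, and *Gli2*, the main activator among the Gli factors, on the same chromosome from 118834132 to 119053619 on the minus strand. Chromosome 8 holds *Hhip* (79965851 to 80058006, minus strand), *Foxf1* (121084386 to 121088144, plus strand) and *Foxl1* (121127940 to 121130644, plus strand), so that 39796 bases separate the end of *Foxf1* from the start of *Foxl1*. *Gli1*, an activator that the pathway itself induces, is on chromosome 10 from 127329882 to 127341974 on the minus strand. Chromosome 13 holds *Gli3*, whose protein acts largely as a repressor (15463235 to 15730026, plus strand), *Foxf2* (31625816 to 31631403, plus strand) and the receptor gene *Ptch1* (63508328 to 63573598, minus strand). The values are per whole gene, and no transcript was told apart from another.

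RefSeq start windows, from 250 bases before to 50 bases after the start in GRCm38.p6, were found for 6 of the 9 genes. They are shown for the epithelial ligand, for the receptor and for *Foxf2*, the forkhead member with values in the single cells, with CG pairs in capitals. The *Ihh* window is chr1:74951623-74951922 (minus strand), the *Ptch1* window is chr13:63565686-63565985 (minus strand), inside the annotated gene, and the *Foxf2* window is chr13:31625566-31625865 (plus strand).
Ihh: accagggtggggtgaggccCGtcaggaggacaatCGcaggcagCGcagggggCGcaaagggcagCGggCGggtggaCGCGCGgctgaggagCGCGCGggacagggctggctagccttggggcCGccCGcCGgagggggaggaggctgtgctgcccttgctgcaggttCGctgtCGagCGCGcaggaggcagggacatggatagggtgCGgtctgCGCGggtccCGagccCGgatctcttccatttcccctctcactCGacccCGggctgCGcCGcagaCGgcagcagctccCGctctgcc
Ptch1: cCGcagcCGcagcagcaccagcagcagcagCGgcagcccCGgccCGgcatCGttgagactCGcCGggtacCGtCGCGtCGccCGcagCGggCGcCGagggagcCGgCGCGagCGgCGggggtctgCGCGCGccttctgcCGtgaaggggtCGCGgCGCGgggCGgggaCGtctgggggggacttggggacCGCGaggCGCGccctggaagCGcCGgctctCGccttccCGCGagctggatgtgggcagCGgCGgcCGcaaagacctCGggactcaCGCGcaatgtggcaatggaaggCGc
Foxf2: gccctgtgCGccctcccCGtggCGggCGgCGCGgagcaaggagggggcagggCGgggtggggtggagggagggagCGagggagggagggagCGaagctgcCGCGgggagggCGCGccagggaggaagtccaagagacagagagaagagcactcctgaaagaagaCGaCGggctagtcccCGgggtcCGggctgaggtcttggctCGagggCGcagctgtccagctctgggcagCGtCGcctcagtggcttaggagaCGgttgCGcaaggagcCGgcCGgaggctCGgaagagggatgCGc
These windows held 30, 47 and 27 CG pairs for *Ihh*, *Ptch1* and *Foxf2*, and *Gli2*, *Hhip* and *Gli3* held 28, 30 and 39, against a median of 7 over all 32851 windows. The Gli consensus GACCACCCA, searched on both strands, was in 83 windows (0.253%) and in 0 of the 6. Its inner part ACCACCC, which overlaps it, was in 1514 windows (4.61%) and in 1 of the 6, that of *Gli2*.

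LCM samples are small tissue fragments amplified before sequencing, and their values were deposited as TPM, a length-corrected share of the transcripts, which hide the number of reads, so the depth behind each value is unknown. After removal of 378 genes that dominate enterocytes (4.97% to 44.7% of the TPM of a sample) the values were rescaled to parts in 1e6 (ppm). Between 5481 and 17306 genes were above 0 in a sample, and across genes the log2 values of 11 pairs of sections from the same mouse and zone correlated with a median Pearson r of 0.742, against 0.677 between mice. A value of 0 may be a missed transcript here and is given as listed at 0. In these bulk samples fewer cells of a type and less RNA per cell cannot be told apart. Differences are given on the log2(ppm + 1) scale, which understates the change of low genes, with limma's 95% intervals. Exact permutation p-values over mice are two-sided, unadjusted and belong to 24 tests, 8 genes in 3 comparisons. They treat the values of different zones as independent, although the zones share mice.

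Along the crypt-villus axis, *Foxf1* and *Hhip* were lower in the stroma of the villus tip by their own unpaired tests over mice. This held for *Foxf1* against crypt and villus bottom and for *Hhip* against the bottom. For *Ihh*, *Ptch1*, *Foxf2* and the 3 Gli genes no difference in the 3 comparisons exceeded the spread between mice, except that of *Foxf2* between tip and bottom once the mouse was a block. Adjusted over all genes, limma called 0 of 13535 (0.0%) in each comparison, so the *Foxf1* and *Hhip* differences rest on unadjusted tests. As a background for groups that do not overlap, every mouse of the tip was below every mouse of the crypt in 1.8% of the genes tested and above in 0.672%, the bottom was below the crypt in 1.17% and above in 1.2%, and the tip was below the bottom in 0.791% and above in 0.111%.

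*Ihh* is an epithelial ligand, and its stromal values were 8.68, 0.700 and 21.0 ppm in the crypt, 5.60, 6.86, 19.1, 1.91 and 1.32 at the villus bottom, 1.28, 0.250, 19.3, 0 and 0 at the center and 29.7, 8.32, 0.327, 25.2 and 0 at the tip. The highest and the lowest value of the tip were farther apart than any pair of zone medians, which were 8.68, 5.60, 0.250 and 8.32 ppm. No pair of zones differed beyond the spread between mice in the 3 comparisons made, with log2 differences of -0.18 (95% interval -2.79 to 2.43) between tip and crypt, -0.28 (-2.89 to 2.33) between bottom and crypt and 0.10 (-2.16 to 2.36) between tip and bottom. Epithelial RNA was present in the fragments before the removal of enterocyte genes. The 4 of 6 epithelial markers listed in the deposited TPM summed to medians of 650 TPM in the crypt, 507 at the bottom, 553 at the center and 477 at the tip, and the part of that RNA in the *Ihh* values was not tested.

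*Ptch1* was present in every zone. Its values were 8.25, 9.57 and 19.3 ppm in the crypt, 2.22, 8.94, 7.74, 25.8 and 14.5 at the villus bottom, 12.1, 5.34, 6.83, 0.314 and 10.2 at the center and 1.54, 0, 17.0, 4.70 and 10.1 at the tip. Its medians were 9.57, 8.94, 6.83 and 4.70 ppm along the axis, and each neighbouring pair of zones overlapped. The tip was below the crypt in 3 of 3 mice, by -1.35 (95% interval -3.46 to 0.75, exact permutation p = 0.268), or above it by 0.51 when samples were scaled to 6 mesenchymal genes, and below the bottom in 4 of 5 mice, by -1.07 (-2.89 to 0.76, exact permutation p = 0.270).

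*Hhip*, the secreted and membrane-bound antagonist that binds Hedgehog ligands, had its highest median, 57.4 ppm, at the villus bottom. There the values were 6.94, 23.0, 57.4, 373 and 173 ppm in mice 1 to 5, against 0, 12.1, 0.130, 1.16 and 2.37 at the villus tip. The crypt had 0.340, 55.4 and 31.9 ppm in mice 1 to 3, and the center 26.2, 0.881, 6.14, 0.653 and 37.5. At the bottom the 57.4 ppm of mouse 3 came from 1 section at 115 ppm and another listed at 0. The 373 and 173 ppm of mice 4 and 5 each rest on 1 section. By section, *Hhip* was listed at 0 in 4 of 8 at the tip, in 1 of 8 at the bottom and in 0 elsewhere. Within each mouse the tip lay below the bottom, in 5 of 5, although the tip of mouse 2 exceeded the bottom of mouse 1. The tip was lower than the bottom by -4.53 on the log2 scale (95% interval -7.0 to -2.07, exact permutation p = 0.0159, unadjusted). That permutation test left out the pairing of the zones within a mouse. An exact permutation test within the pairs of these mice could not reach so small a p. In limma the p was 0.000896 before and 0.657 after adjustment over all genes. Over the other limma settings, the mouse as a block among them, the unadjusted p ran from 0.000362 to 0.00751. No adjusted p was below 0.374 there. Between tip and crypt the *Hhip* difference was -2.41 (95% interval -5.26 to 0.44, exact permutation p = 0.196) and between bottom and crypt 2.13 (-0.72 to 4.98, exact permutation p = 0.286), both within the spread between mice.

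The Gli genes showed no common zonation. *Gli1* had 1.13, 4.51 and 5.60 ppm in the crypt, 1.24, 7.85, 5.17, 48.0 and 0 at the villus bottom, 0.769, 14.3, 4.64, 0.371 and 5.57 at the center and 0.891, 3.33, 9.10, 7.86 and 1.35 at the tip, with medians of 4.51, 5.17, 4.64 and 3.33. *Gli3* was at most 1.82 ppm in the crypt, and mouse 4 held its highest value in each villus zone, 44.8, 19.3 and 13.3 ppm, while the other mice ranged from 0.171 to 4.35 at the bottom, from 0 to 3.42 at the center and from 0 to 1.65 at the tip. *Gli2* was at most 0.356 ppm in the crypt and reached 3.24 at the bottom, 17.2 at the center and 48.2 at the tip, the last in mouse 3, where 1 section had 95.2 ppm and the other 1.08. The differences between tip and crypt were 0.06 for *Gli1* (95% interval -2.24 to 2.36), 1.71 for *Gli2* (-0.71 to 4.12) and 0.38 for *Gli3* (-2.11 to 2.86), with exact permutation p = 0.946, 0.268 and 0.821. Although these differences are positive, among the mice with both zones the tip was below the crypt in 3 of 3 for *Gli3*. For *Gli1* and *Gli2* it was below in 2 of 3 each. Between tip and bottom *Gli3* was lower in 5 of 5 mice, by -0.64 (95% interval -2.79 to 1.52, exact permutation p = 0.603).

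*Foxf1*, which encodes a forkhead factor required for the gut mesenchyme, had its low values at the villus tip. In ppm it stood at 12.7, 74.4 and 8.17 in the crypt of mice 1 to 3, and 2.08, 18.7, 17.9, 4.89 and 4.06 at the villus bottom of mice 1 to 5. At the villus center it had 38.4, 45.0, 0, 16.5 and 0.951, and at the villus tip 0.207, 0, 0.613, 0 and 1.15. Every villus tip value thus lay below every crypt and every villus bottom value, while the center spanned 0 to 45.0 ppm. By section, *Foxf1* was listed at 0 in 5 of 8 at the tip, where the highest section reached 1.23 ppm, in 2 of 6 in the crypt, in 1 of 7 at the center and in 0 of 8 at the villus bottom.

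On the log2 scale *Foxf1* was lower by -3.99 at the tip than in the crypt (95% interval -6.39 to -1.58) and lower in 3 of 3 mice with both zones. The exact two-sided permutation test over mice gave p = 0.0179, the smallest that 5 mice against 3 allow. Against the villus bottom the difference was -2.60 (95% interval -4.68 to -0.52), lower in 5 of 5 mice, with an exact permutation p of 0.00794, the smallest that 5 against 5 allow. That test left out the pairing, although tip and bottom came from the same 5 mice. An exact permutation test within the pairs could not reach so small a p. Non-overlap like that of *Foxf1* was met in 1.8% and 0.791% of all genes in the same comparisons. Adjusted over all genes in limma (Benjamini-Hochberg) the *Foxf1* differences had p = 0.991 and 0.990, so neither passed. Over the other limma settings, the mouse as a block among them, the unadjusted p ran from 0.00152 to 0.0373 against the crypt. Against the bottom it ran from 0.00731 to 0.0665, and no adjusted p was below 0.499 in either comparison.

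The forkhead gene *Foxf2*, a close relative of *Foxf1*, had 0.360, 2.16 and 6.63 ppm in the crypt, 1.97, 12.1, 30.6, 1.02 and 9.86 at the villus bottom, 1.94, 9.28, 8.10, 1.01 and 1.07 at the center and 0.913, 0, 4.30, 0 and 5.32 at the tip. It was lower at the tip than at the bottom in 5 of 5 mice, but the groups overlapped, and the difference of -1.74 (95% interval -3.60 to 0.12) was within the spread between mice when the pairing was left out (exact permutation p = 0.103). With the mouse as a block its interval in limma was -3.20 to -0.28, with p = 0.0224 before and 0.593 after adjustment over all genes. *Foxf2* was higher at the villus bottom than in the crypt in 3 of 3 mice, by 1.26 (95% interval -0.88 to 3.41, exact permutation p = 0.286). Sections listed at 0 numbered 4 of 8 at the tip, 2 of 7 at the center and 0 elsewhere.

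**Figure D1:**
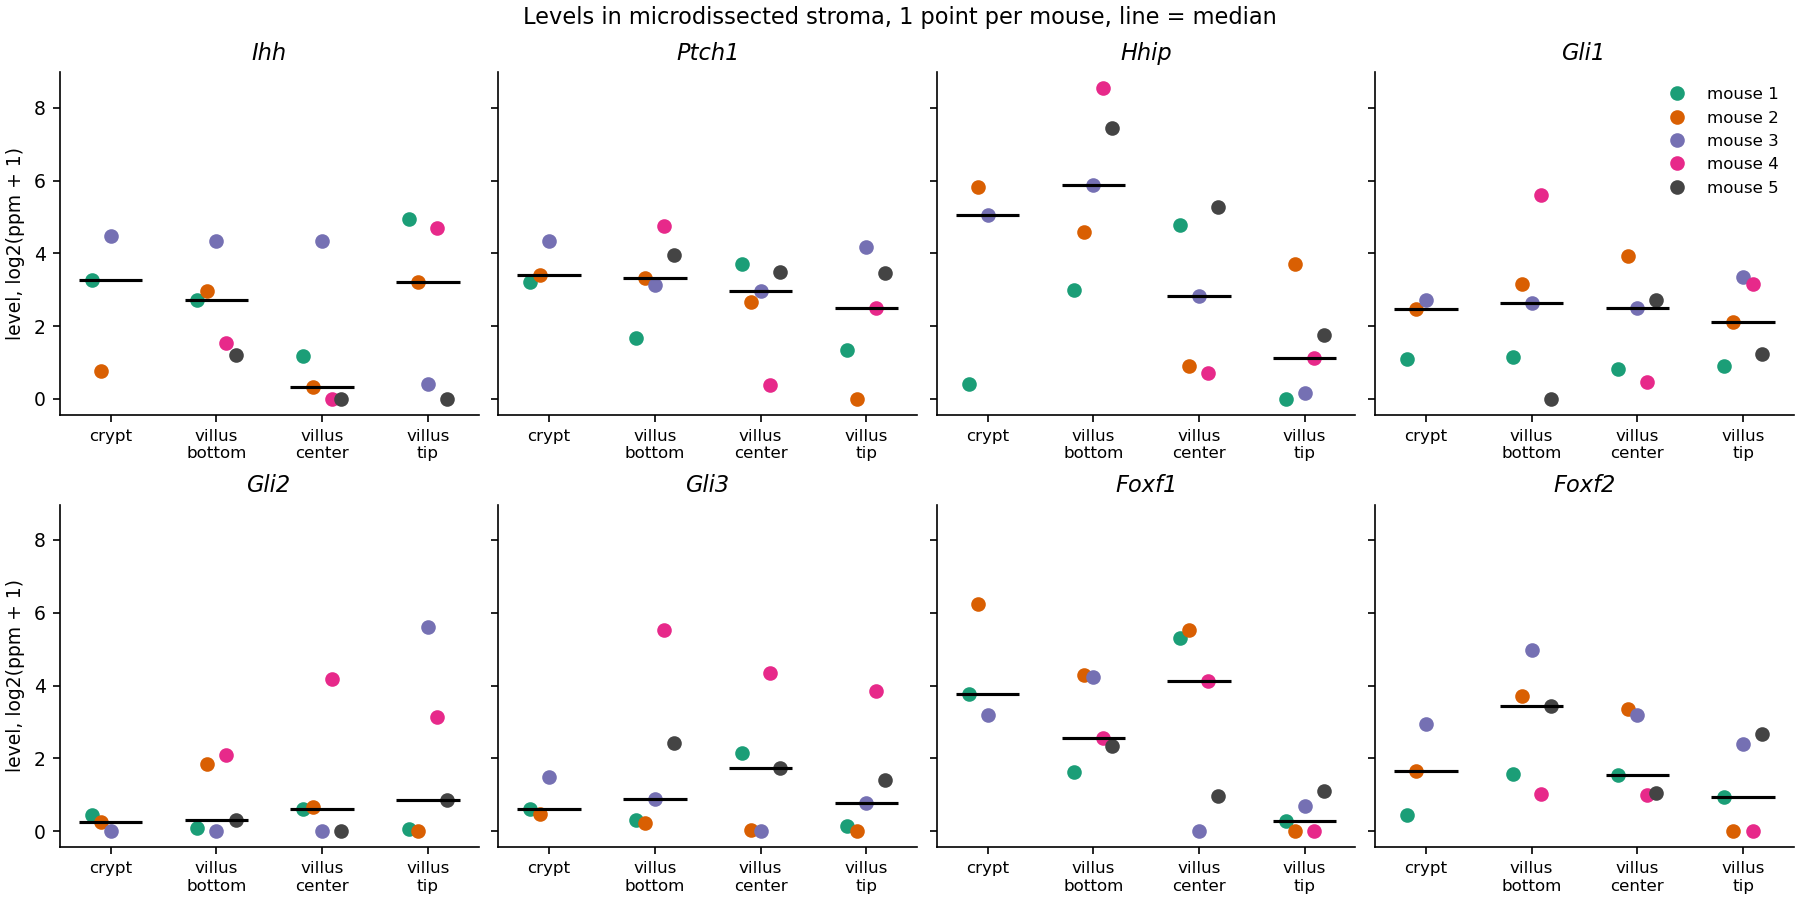
Level of the 8 genes with LCM values, as log2(ppm + 1), in the 4 stromal zones, with 1 point per mouse coloured by mouse and a line at the median (crypt 3 mice, villus zones 5 mice). The 5 villus tip points of Foxf1 lie below all its crypt and villus bottom points, and the Hhip points run from 6.94 to 373 ppm at the villus bottom.

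**Figure D2:**
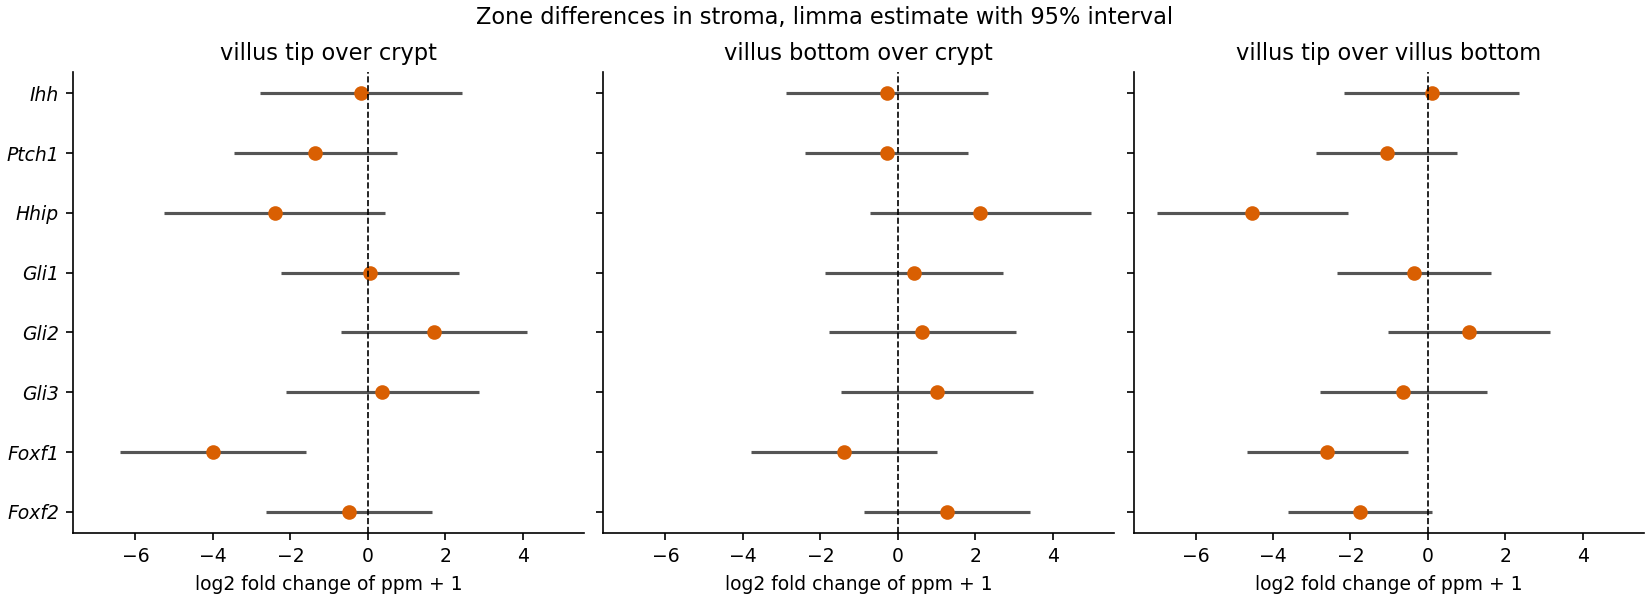
Differences between stromal zones for the same 8 genes, as log2 fold changes of ppm + 1 from limma with 95% intervals (villus tip over crypt, villus bottom over crypt, villus tip over villus bottom). The interval lies below 0 for Foxf1 in both comparisons of the tip and for Hhip between tip and bottom, and includes 0 for the other genes and comparisons drawn.

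Of the 13535 genes 441 (3.26%), 205 (1.51%) and 620 (4.58%) had an unadjusted limma p under 0.05 for tip over crypt, bottom over crypt and tip over bottom. The test of any difference between the 4 zones also called 0 of 13535, with 550 at an unadjusted p under 0.05, and gave unadjusted p = 0.00986 for *Foxf1* and 0.00793 for *Hhip*. Marker sums also differed between the zones. The 6 mesenchymal markers summed to a median of 427 ppm in the crypt (153 to 663), 155 at the villus bottom (78.2 to 311), 805 at the center (82.3 to 1683) and 85.9 at the tip (40.2 to 417), with all 6 detected in each zone. The 3 of 5 smooth muscle markers listed summed to medians of 290 (207 to 330), 167 (96.1 to 259), 137 (42.8 to 5298) and 67.4 ppm (8.39 to 395) in the same order. Scaled to the 6 mesenchymal genes, an alternative chosen after seeing the data, *Foxf1* was still lower at the tip, by -3.05 against the crypt and -2.63 against the bottom, and *Hhip* by -3.85 against the bottom, while the median of all genes moved to 1.33, 0.78 and 0.60 in the comparisons of tip over crypt, bottom over crypt and tip over bottom. The part of the smooth muscle markers was not tested.

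Other genes of the pathway, from lists set with earlier results of these data known, gave no call. Of 22 further Hedgehog components 13 were tested in the LCM stroma, 0 passed an adjusted p of 0.05 in any of the 3 comparisons, and their median log2 differences were 0.50, 0.37 and 0.12 for tip over crypt, bottom over crypt and tip over bottom, beside 0.04, 0.14 and -0.06 over all genes. Those with the highest mean ppm over the 18 mouse and zone values were *Spop* (61.3), which encodes a ubiquitin ligase adaptor acting on Gli proteins, *Hhat* (30.6), which encodes the acyltransferase that modifies the ligands, *Gsk3b* (28.2), a kinase gene, and the co-receptor gene *Gas1* (26.8, or 11.9 without the villus center of mouse 4, at 281 ppm). Of 8 Hedgehog-responsive mesenchymal genes 6 were tested and 0 passed, with medians of -0.45, 0.65 and -0.65, and *Bcl2* (110 ppm), *Nkx2-3* (54.1) and *Bmp4* (53.8, or 35.7 without the villus tip of mouse 4) had the highest means. Of 22 other forkhead genes 15 were tested and 0 passed, with medians of -0.29, -0.09 and 0.11, and *Foxp2* (582 ppm) and *Foxp1* (132, or 56.2 without the villus center of mouse 4, at 1418 ppm) had the highest means.

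Likeness between profiles was described over the 18 mouse and zone values, which share libraries and mice, so no p is given. Among the 8 genes themselves the highest Pearson r were 0.475 for *Ptch1* with *Hhip*, 0.455 for *Gli2* with *Gli3*, 0.41 for *Foxf2* with *Ptch1* and 0.394 for *Gli1* with *Ptch1*. All are lower than the r of each gene with its most similar gene in the table. That partner is the highest of all genes tested, so its r is raised by the search, and the comparison cannot show how alike the members are. The profile most like *Foxf1* was that of *Arl6ip6* (r = 0.784) and the one most like *Foxf2* that of *Wipi1* (0.806). For *Hhip* it was *Cntln* (0.830), for *Ptch1* *Tgs1* (0.811), for *Gli1* *Ccdc157* (0.804), for *Gli2* *Nanos2* (0.863) and for *Gli3* *Chd2* (0.855). *Ihh* was most like *Il33* (0.799), followed by *Csnk1d* and the epithelial forkhead gene *Foxa1* (0.788 each).

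In the single-cell experiment unnormalized UMI counts of 12346 wells could be assigned to a sample. A total of 400 to 8000 UMIs, from 250 genes or more, was required, which 2347 cells met (median 1359 UMIs). Of these, 325 cells (13.8%) were mesenchymal by the rule of at least 2 of *Pdgfra*, *Dcn*, *Lum*, *Col1a1*, *Col1a2* and *Col3a1*. They came from 5 mice, with 111 in mouse A, 5 in B, 13 in E, 194 in G and 2 in H, and 168 came from 1 plate of the PDGFRa singlet gate of mouse G. Gates labelled as doublets gave 79 of them, all from mouse A, and 7 had at least 2 epithelial markers. Of 6 immune markers 4 had 0 UMIs in the 325 cells, *Ptprc* among them, while *Cd74* had 14 UMIs in 8 cells and *Coro1a* 2 in 1. Of 5 endothelial markers *Pecam1* had 3 UMIs and the others 0. Epithelial cells, with at least 2 of 6 epithelial markers and fewer than 2 of the mesenchymal genes, numbered 1644 in 8 mice. Median depth was 1028 UMIs in mesenchymal and 1751 in epithelial cells. All 384 well barcodes recurred between plates and 0 pairs of kept cells were identical.

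The members were split between these compartments. *Ihh* had 151 UMIs in 114 of the 1644 epithelial cells (6.93%, 95% exact binomial interval 5.75% to 8.27%) and 0 UMIs in the 325 mesenchymal ones, which by the floor of 3 counts limits cells with a UMI, not cells that express the gene, to 0.923%. In UMIs per 1e5 the epithelial level was 3.45, 6.24, 7.75, 0, 7.66, 4.21, 3.72 and 1.88 in mice A to H, so that 7 of 8 mice had the ligand. The remaining mouse D had 13 epithelial cells. Summed over cells the epithelial level was at least 5.32-fold higher than in mesenchymal cells, against a floor of 3 UMIs over the mesenchymal group. *Ihh* was found in 1 of 52 epithelial cells of the EPCAM singlet gate, 35 of 555 of the doublet gates (6.31%) and 78 of 1037 of the other gates (7.52%). All intervals and floors in UMI data cover counting error only.

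*Ptch1*, the receptor, had 32 UMIs in 21 mesenchymal cells (6.46%, 95% exact binomial interval 4.04% to 9.71%) and 5 UMIs in 5 epithelial cells (0.304%, 0.0988% to 0.708%). Its level per 1e5 UMIs was 17.1 in mouse A, 0 in B, 0 in E and 4.83 in G, and at most 0.485 in the epithelial cells of any mouse. Over all cells the mesenchymal level was 60.6 times the epithelial one (95% counting interval 23.4 to 199). Thinned to 400 UMIs per cell the shares were 2.72% and 0.0598%.

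*Foxf2* had 19 UMIs in 14 mesenchymal cells (4.31%, interval 2.37% to 7.12%) and 0 in epithelial and 0 in the 125 immune cells. Per 1e5 UMIs it stood at 12.6 in mouse A, 0 in B, 11 in E, where it rests on 1 UMI, and 1.48 in G. The mesenchymal level was at least 60.0-fold higher, against a floor of 3 UMIs over the epithelial group. By the same floor up to 0.182% of epithelial cells could have had a UMI.

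Gli transcripts were rare in the cells. *Gli3* had 17 UMIs in 11 mesenchymal cells (3.38%) and 1 UMI in epithelial cells, a ratio of 161 with a counting interval of 25.2 to 6727. *Gli2* had 13 UMIs in 9 mesenchymal cells (2.77%) and *Gli1* 5 UMIs in 3 (0.923%), with 0 in epithelial cells for both, so that their mesenchymal levels were at least 41.0-fold and at least 15.8-fold higher against the same floor. In mice A, B, E and G the levels per 1e5 UMIs were 0.902, 0, 0 and 1.48 for *Gli1*, 0.902, 0, 0 and 4.45 for *Gli2* and 0.902, 0, 22.0 and 5.20 for *Gli3*, where the value of mouse E rests on 2 UMIs. *Hhip* had 2 UMIs in 1 mesenchymal cell of mouse G and 0 in epithelial cells, and a zonation within the mesenchyme could not be followed at this depth. Of the 325 mesenchymal cells 52 (16%) had a UMI of any of the 6 stromal members, 6 of these had at least 2 members, and 6 of 1644 epithelial cells had any. At the edge of the mesenchymal rule, 23 cells had exactly 2 of the 6 genes, of which 2 had *Ptch1* and 0 another member, and 64 cells outside it had exactly 1, of which 4 had *Ihh*, 1 *Ptch1* and 1 *Gli3*. Of those 64 cells 49 had at least 2 epithelial markers.

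**Figure D3:**
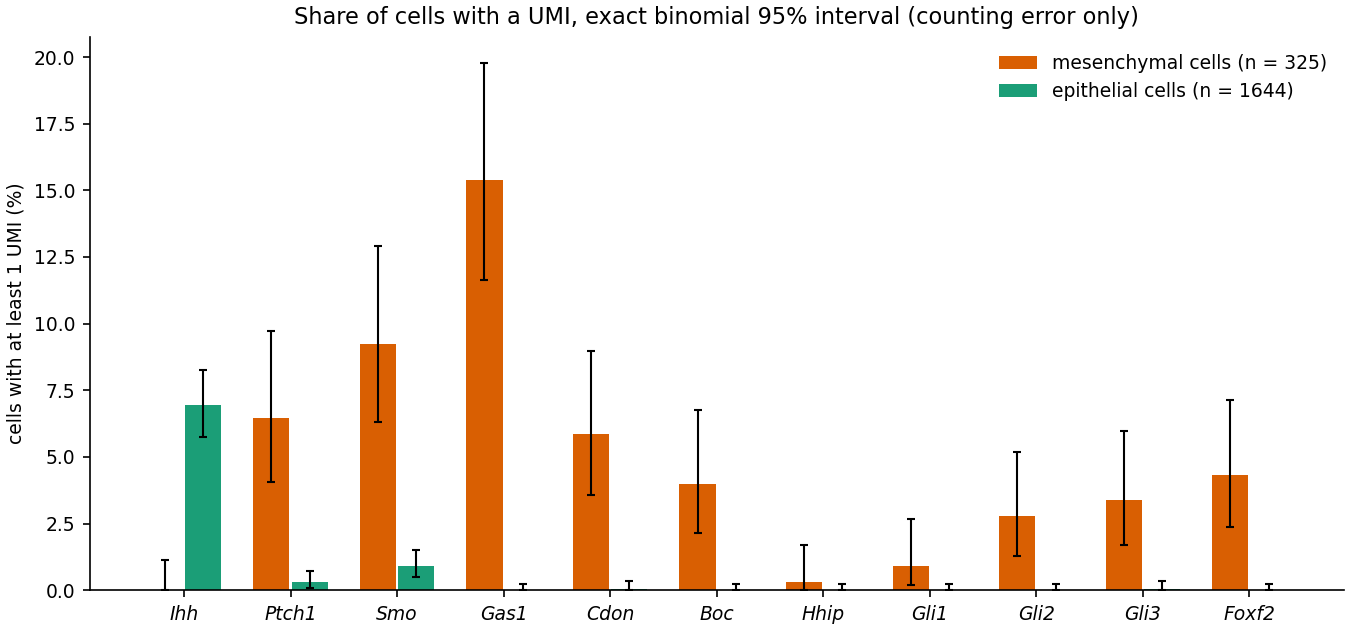
Share of cells with at least 1 UMI (%) of 7 members and of the pathway genes Smo, Gas1, Cdon and Boc, in 325 mesenchymal and 1644 epithelial cells, with exact binomial 95% intervals that cover counting error only. Of these 2 classes Ihh is seen in epithelial cells (6.93% against 0), and the other genes drawn have their higher share in mesenchymal cells.

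Over mice, the exact permutation test of 4 mesenchymal against 8 epithelial sums per mouse (two-sided, unadjusted, smallest p 0.00202 without ties) gave p = 0.0182 for *Foxf2*, 0.0182 for *Gli3*, 0.0202 for *Ihh*, 0.0909 for each of *Ptch1*, *Gli1* and *Gli2* and 0.333 for *Hhip*. With most sums at 0, *Foxf2*, *Gli1*, *Gli2* and *Hhip* could not reach a smaller p than the one given. Their p-values therefore reflect only the number of mice with a UMI. *Gli3* and *Ptch1* have the same p as *Foxf2* and *Gli1*, with UMIs in as many mesenchymal mice, 3 of 4 and 2 of 4. Their p-values thus follow that number too and are no measure of the level. The same 4 mice are in both groups, so the sums are not independent, and an exact test within the 4 mice alone can give no p below 0.125. *Ihh* was lower in mesenchymal cells in 4 of 4 mice, *Foxf2* and *Gli3* were higher in 3 of 4, *Ptch1*, *Gli1* and *Gli2* in 2 of 4 and *Hhip* in 1 of 4, and the mice without a difference had 0 UMIs in both.

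In the edgeR quasi-likelihood test over all genes, 3241 genes passed edgeR's own filter on low counts (filterByExpr), and 57.1% of these were called at an adjusted p of 0.05, 775 (23.9%) higher and 1075 (33.2%) lower in mesenchymal cells. The filter removed all 7 members, so they have no value in that test. With no filter 18646 genes were tested, of which 14.6% were called higher and 12.5% lower, and all 7 members were called. The log2 fold changes, which depend on the prior count where a group is at 0, were 6.66 for *Foxf2* (adjusted p = 3.95e-10), 5.60 for *Gli2* (8.06e-07), 5.41 for *Gli3* (3.08e-07), 4.86 for *Ptch1* (1.14e-09), 4.45 for *Gli1* (0.000181) and 3.25 for *Hhip* (0.0215), and -7.0 for *Ihh* (1.35e-05). The *Hhip* call rests on 2 UMIs of 1 cell.

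Without the filter 12 of 19 further pathway components tested were higher in mesenchymal cells and 0 lower, beside 14.6% and 12.5% of all genes. Their median log2 fold change was 3.25 beside -0.50 over all genes. The co-receptor genes *Gas1*, *Cdon* and *Boc* were among those called higher. *Gas1* had 94 UMIs in 50 mesenchymal cells (15.4%) and 0 in epithelial cells (log2 fold change 8.37, adjusted p = 4.94e-24 in edgeR), *Cdon* 35 UMIs in 19 cells against 1 (6.06, adjusted p = 3.39e-11) and *Boc* 14 UMIs in 13 cells against 0 (5.70, adjusted p = 4.29e-07). The signal transducer *Smo* had 36 UMIs in 30 mesenchymal cells (9.23%) and 18 in 15 epithelial cells (0.912%), with a log2 fold change of 3.20 (adjusted p = 6.90e-06). The cilium genes *Evc* (22 UMIs) and *Evc2* (19) and the ligand release genes *Scube1* (10) and *Scube2* (13) were also called higher.

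Of 8 Hedgehog-responsive genes 6 were tested without the filter and 3 were higher, namely *Bmp4*, which encodes a BMP ligand (81 UMIs in 56 mesenchymal cells, 17.2%, against 0), *Nkx2-3*, a homeobox gene of the gut mesenchyme (61 UMIs in 38 cells against 2 UMIs), and *Bcl2*. Of 18 other forkhead genes tested, *Foxp1*, *Foxp2* and *Foxs1* were higher and *Foxq1* was lower. Over all genes this unfiltered fit called 14.6% higher and 12.5% lower, the background for both lists, and the forkhead counts do not stand out from it. *Foxp1* was the only gene of these lists called in the filtered test, at a log2 fold change of 2.48 (95% interval 1.52 to 3.45, adjusted p = 3.34e-05).

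Within the mesenchyme, cells were sorted by the marker list with the most UMIs, among short lists of crypt telocyte, villus tip telocyte, myofibroblast and enteric mesothelial fibroblast genes that contain no member. The myofibroblast list shares *Acta2* and *Tagln* with the smooth muscle markers, and its other genes are *Ednrb*, *Emid1*, *Pdlim1* and *Aldh1a1*. The crypt telocyte list led in 141 cells (median 1100 UMIs), the villus tip telocyte list in 77 (1502), the myofibroblast list in 55 (756) and the enteric mesothelial list in 30, and 22 cells had no leading list. Of the 55 cells led by the myofibroblast list 51 came from mouse A and 31 from doublet gates, so this class is 1 mouse in practice, and its values are a description with no test.

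*Foxf2* and *Ptch1* had their highest shares in the cells led by the myofibroblast list. For *Foxf2* they held 15 of 19 mesenchymal UMIs (78.9%), in 11 of 55 cells (20.0%, exact binomial interval 10.4% to 33.0%), against 1 of 141 cells led by the crypt list (0.709%) and 0 of 77 led by the tip list, where the floor allows up to 3.90% of cells with a UMI. For *Ptch1* they held 16 of 32 UMIs (50%), in 13 of 55 cells (23.6%, interval 13.2% to 37.0%), against 7 of 141 crypt-list cells (4.96%) and 0 of 77 tip-list cells. Thinned to 400 UMIs the shares for the myofibroblast, crypt and tip lists were 9.94%, 0.692% and 0% for *Foxf2* and 9.43%, 2.35% and 0% for *Ptch1*. Within mouse A alone *Foxf2* was in 10 of 51 myofibroblast-list cells (19.6%), 0 of 32 crypt-list cells and 0 of 12 tip-list cells, and *Ptch1* in 12 of 51 (23.5%), 1 of 32 and 0 of 12. Of the 4 myofibroblast-list cells outside mouse A, 1 had *Foxf2* and 1 had *Ptch1*. Without the doublet gates, an alternative added after seeing the data, 24 myofibroblast-list cells remained, of which 3 had *Foxf2* (12.5%, interval 2.66% to 32.4%) and 6 had *Ptch1* (25%, 9.77% to 46.7%).

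Other members had other places. *Gli2* had 11 of 13 UMIs (84.6%) in crypt-list cells, in 7 of 141 cells (4.96%), with the other 2 UMIs in 2 of the 22 cells with no leading list (9.09%), and 0 in the 77 tip-list, 55 myofibroblast-list and 30 enteric mesothelial-list cells. *Gli3* had 11 of 17 UMIs (64.7%) in tip-list cells, with 6 of 77 cells (7.79%, interval 2.91% to 16.2%), against 4 of 141 crypt-list cells (2.84%, 0.778% to 7.10%), and these intervals overlap. All of the 6 tip-list cells with *Gli3* came from mouse G, in which *Gli2* was in 7 of 98 crypt-list cells and 0 of 63 tip-list cells, and *Ptch1* in 6 of 98 and 0 of 63. *Gli1* was in 2 crypt-list cells and 1 myofibroblast-list cell, and the 1 cell with *Hhip* was led by the myofibroblast list.

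*Gas1* was in 25 crypt-list cells (17.7%) and 18 tip-list cells (23.4%), *Cdon* in 6 (4.26%) and 12 (15.6%) and *Boc* in 9 (6.38%) and 2 (2.60%), and each was in 0 of the 55 myofibroblast-list cells, where the floor allows up to 5.45% of cells with a UMI. Under the enteric mesothelial list *Gas1* was in 6 of 30 cells, *Boc* in 2 and *Cdon* in 0. Within mouse A, the source of 51 of the 55 cells, *Gas1* was in 2 of 32 crypt-list cells and 4 of 12 tip-list cells, *Cdon* in 0 and 2, and *Boc* in 1 and 0, beside 6 of 98 and 10 of 63 for *Cdon* and 8 and 2 for *Boc* in mouse G. The difference between the lists was not tested. After thinning the *Gas1* shares were 8.45%, 11.4% and 0% for crypt, tip and myofibroblast lists. *Bmp4* was in 38.2% of myofibroblast-list, 17.0% of crypt-list and 5.19% of tip-list cells, and thinned in 20.8%, 7.51% and 1.71%. *Smo* was detected in cells of all 3 classes, at 7.27%, 7.80% and 15.6%.

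**Figure D4:**
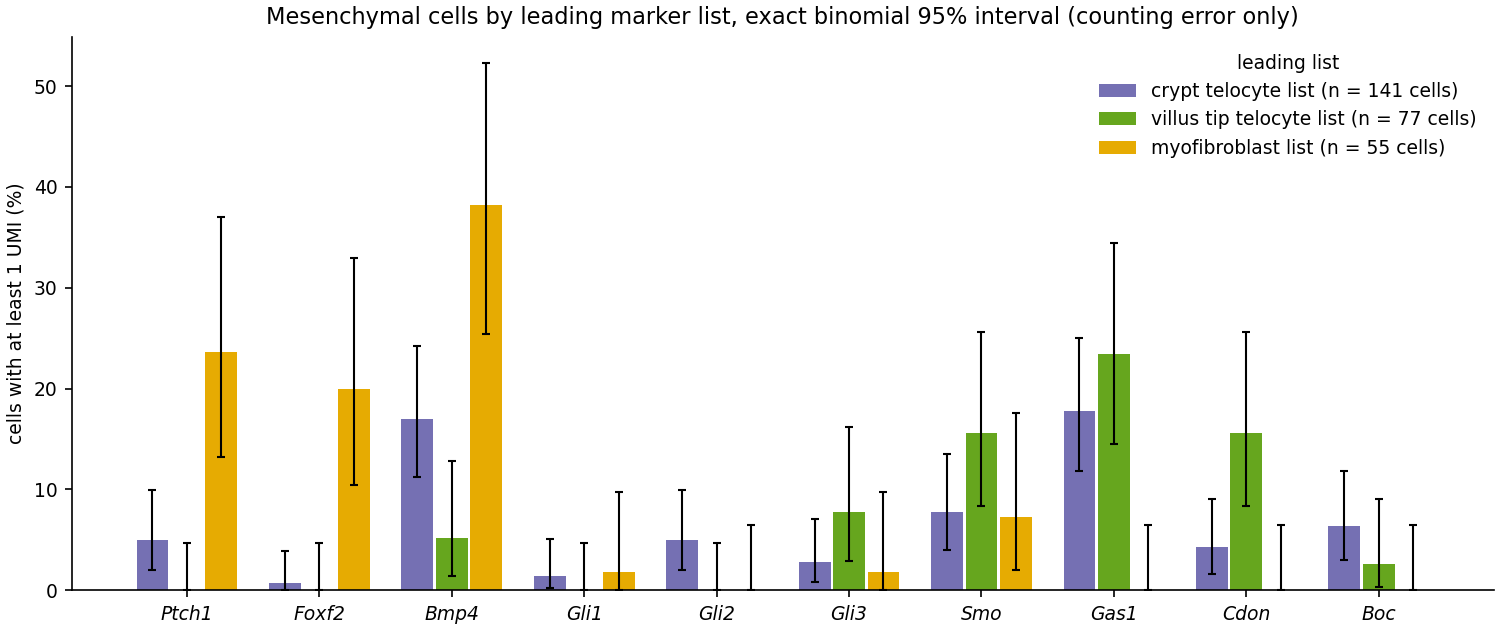
Share of cells with at least 1 UMI (%) of 5 members and of Bmp4, Smo, Gas1, Cdon and Boc among mesenchymal cells led by the crypt telocyte list (141 cells), villus tip telocyte list (77) or myofibroblast list (55), with exact binomial 95% intervals that cover counting error only. Foxf2 and Ptch1 reach 20.0% and 23.6% under the myofibroblast list, where Gas1, Cdon and Boc are at 0, and 51 of those 55 cells are from 1 mouse.

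Crypt-list and tip-list cells could be compared with edgeR over few mice. Crypt-list sums came from mice A, E and G (32, 7 and 98 cells) and tip-list sums from A and G alone (12 and 63). Of 737 genes tested 24 (3.26%) passed an adjusted p of 0.05, 13 higher (1.76%) and 11 lower (1.49%) in crypt-list cells, and the filter removed every member. With the mouse as a block, which keeps mice A and G only, 47 genes passed. *Bmp4* was the one listed gene with an unadjusted p under 0.05, higher in crypt-list cells by 3.11 (95% interval 0.16 to 6.07), but not after adjustment (adjusted p = 0.404). The paper saw the same direction in its single cells, but significantly more *Bmp4* in villus tip telocytes by in situ hybridization, which it found to match its LCM data. In the LCM stroma here *Bmp4* differed between tip and crypt by 0.30 (95% interval -2.69 to 3.29), with tip values from 0.849 to 361 ppm. The paper proposes that low capture of transcripts from tip telocytes might explain the conflict, which was not tested here. Without the filter *Ptch1* was higher in crypt-list cells by 5.22 (95% interval 0.68 to 9.76, adjusted p = 0.658), *Gli2* by 4.47 (-0.08 to 9.01) and *Gli3* lower by -0.94 (-3.85 to 1.97), and 0 members passed.

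*Ihh* was measured again in bulk epithelium 48 h after DT, where deposited UMI totals ran from 748458 to 4210158 per mouse. In counts per 1e6 UMIs (CPM) it stood at 35.9, 25.4, 38.0 and 37.4 in mock replicates 1 to 4 and at 27.8, 26.6, 45.1 and 41.0 in DT replicates 1 to 4. These means, 34.2 ± 5.92 in mock and 35.1 ± 9.32 in DT (SD, n = 4 each), lay closer than either SD, and replicates 1 and 2, of batch a, held the 2 lowest DT values and the lowest mock value. The log2 fold change of DT over mock was -0.02 (95% interval -0.42 to 0.38, adjusted p = 0.968 from edgeR with batch as a term), and the exact permutation test over mice gave p = 0.971, where 4 against 4 allow a smallest p of 0.0286. Within batch a the log2 fold change was -0.29 (95% interval -1.09 to 0.51) and within batch b 0.16 (-0.31 to 0.63).

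**Figure D5:**
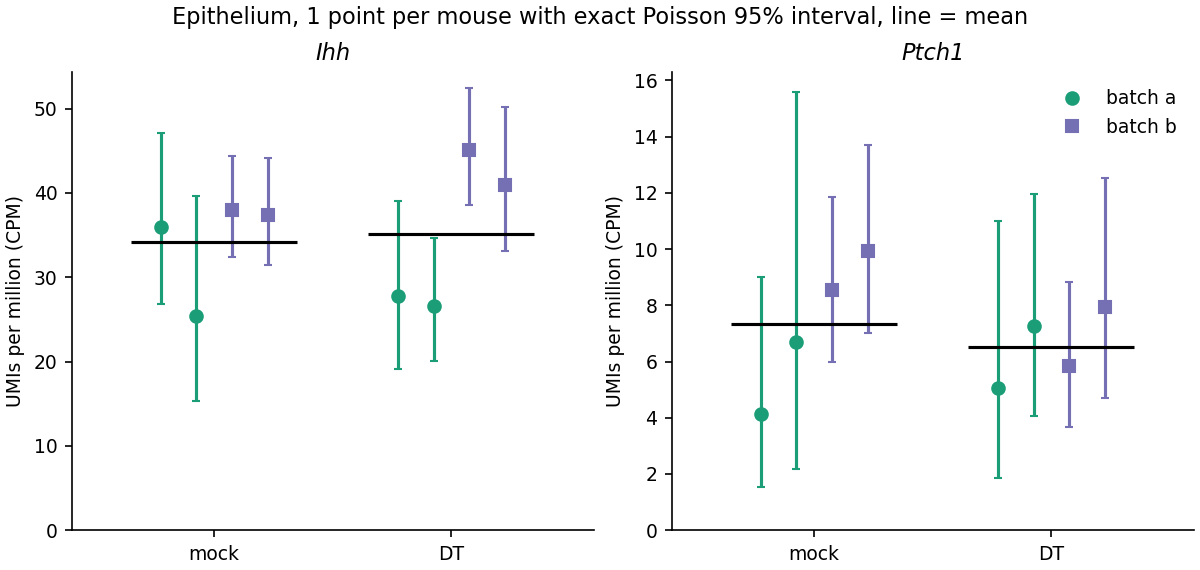
Counts per 1e6 UMIs (CPM) of Ihh and Ptch1 in epithelium 48 h after mock injection or DT, with 1 point per mouse, exact Poisson 95% intervals that cover counting error only, a line at the group mean, and the batch by colour and marker. Ihh lies between 25.4 and 38.0 in mock and between 26.6 and 45.1 in DT, and the groups overlap for both genes.

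Across the epithelium 32 of 8986 genes tested (0.356%) passed an adjusted p of 0.05, 2 higher (0.0223%) and 30 lower (0.334%) after DT, and 3 passed with the replicate number as a block, where *Ihh* was at -0.01 (adjusted p = 0.990). *Ptch1* did not pass the filter, at 4.15, 6.68, 8.55 and 9.95 CPM in mock and 5.06, 7.25, 5.84 and 7.93 in DT (exact permutation p = 0.743). *Gli1*, *Gli2* and *Gli3* had 0 UMIs in all 8 mice, *Foxf2* had 1 UMI in mock replicate 4 and *Hhip* 2 UMIs in DT replicate 1. In the deepest mouse, a count of 0 allows up to 0.713 CPM. All 6 mesenchymal markers were detected, with sums of 6.68 to 17.1 CPM in mock and 2.90 to 21.1 in DT, and their part in the *Ptch1* values was not tested. Of the other pathway components 5 passed the filter and 0 were called, and of the Hedgehog-responsive genes 0 of 4, and of the other forkhead genes 0 of 11.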

How the data were processed

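For the LCM stroma kallisto and sleuth were run by the authors against the coding transcriptome of GRCm38, and TPM values were deposited, 1 per gene and sample. In the other experiments the authors deposited unnormalized UMI counts per gene, made with zUMIs on GRCm38 after bcl2fastq 2.15.0.4. The columns of 352 single-cell wells, whose plate has no counterpart among the samples, were left out. The background of empty wells was not subtracted, and doublets were not called because adhering pairs were sorted on purpose in some gates.

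The genes, the lists and the tests were chosen with earlier results of these data known, and the marker lists within the mesenchyme derive from clusters of these cells, so no list is independent evidence. All 9 genes are named in every experiment, and from each list those past an adjusted p of 0.05 or up to 4 with the highest level. The values of *Gas1*, *Cdon*, *Boc*, *Smo* and *Bmp4* by leading list were chosen for the text after they were seen.

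Enterocyte genes in LCM were those that made up 50% of the UMIs of the mock epithelium, apart from ribosomal and mitochondrial genes (378 listed). Each sample was divided by the sum of genes below 1% of it, the mean over sections was taken for each mouse in each zone, and genes with a zone mean above 5 ppm were fitted on log2(ppm + 1) with limma 3.58.1. UMIs were summed per mouse and class with at least 5 cells and tested with edgeR 4.0.16 (TMM, robust quasi-likelihood, genes kept by filterByExpr), and the epithelium with the batch, from the supplementary count table, as a term, for genes above 1e-05 of the UMIs in at least 2 samples. DESeq2 1.42.0 was an alternative. Exact permutation tests (scipy 1.17.1) were two-sided. They used differences of mean log2(ppm + 1) for LCM, of mean levels for single-cell sums and of mean log2 CPM for the epithelium. Intervals are at 95%, and a floor is 3 counts.

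Zones share mice, and the correlations of same-mouse deviations were 0.362, -0.0714 and 0.115 for crypt and tip and 0.44, 0.0946, 0.146, 0.322 and 0.246 for bottom and tip. Mesenchymal and epithelial sums share mice, with 0.152, 0.0382, -0.0706 and 0.0855 in mice A, B, E and G. In the epithelium, deviations of same-numbered DT and mock mice correlated at 0.608, 0.413, 0.656 and 0.584, and at -0.159 and -0.0606 within batches a and b, so the numbers were taken to pair them through the batch.

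On simulated data with 200 changed genes, limma recovered 48 at a log2 shift of 3 and 184 at 6 for tip over crypt (13535 genes). At a shift of 3, edgeR recovered 197 for mesenchymal over epithelial cells (3241 genes) and 199 for crypt-list over tip-list cells (737 genes), and at a shift of 2 it recovered 200 for the epithelium (8986 genes). Unchanged genes called numbered 0, 8, 12, 14 and 8 in the same order. The genes of the single-cell simulations had passed filterByExpr, which removed every member, so this recovery says nothing about the members. Samples were drawn as independent, although zones and cell classes share mice.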

Additional observations from a re-analysis of the deposited data

Results flagged for a closer look

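In 12 of 37 groups of 4 to 10 values, the highest or the lowest value of a member stood apart from the others by Dixon's test. Chance does this in about 1 in 20 groups of independent normal values, and the values here are skewed, often at 0 and from shared mice, so that rate is no measure for them. In the LCM stroma the values from mouse 4 that stood apart were *Gli1* at the villus bottom, 48.0 ppm, *Gli2* at the villus center, 17.2 ppm, and *Gli3* at the villus bottom, center and tip, 44.8, 19.3 and 13.3 ppm. The other LCM values were *Gli2* at the villus tip of mouse 3, 48.2 ppm, *Hhip* at the villus tip of mouse 2, 12.1 ppm, and *Ihh* at the villus center of mouse 3, 19.3 ppm. The 48.2 ppm of *Gli2* came from 1 section at 95.2 ppm and another at 1.08, and the 12.1 ppm of *Hhip* from 1 section at 24.3 ppm and another listed at 0.

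In the single cells the values were *Gli3* in epithelial cells of mouse G, 0.116 UMIs per 1e5, *Ptch1* in epithelial cells of mouse F, 0.485, and *Hhip* in mesenchymal cells of mouse G, 0.742. They rest on 1, 3 and 2 UMIs, with most other mice at 0. In the epithelium *Ihh* stood apart in mock replicate 2, at 25.4 CPM from 19 UMIs, in the library with the fewest UMIs, 748458.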

How the results depend on the processing

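In the LCM stroma 13 of 24 differences of the 8 genes kept their sign under every one of up to 12 alternatives, among them *Foxf1* at the tip (-6.02 to -2.30 over crypt, -4.48 to -1.25 over bottom) and *Hhip* at the tip over bottom (-5.87 to -3.22). With the mouse as replicate block, 0 genes passed in any LCM comparison, as without it, and *Foxf2* in tip over bottom was at p = 0.0224 unadjusted and 0.593 adjusted. With no filter on low values 2 genes passed for tip over crypt, 2 for bottom over crypt and 2 for any zone difference. The main differences that turned their sign had intervals that include 0, and the cause was not tested. For tip over crypt *Gli1* was at -0.071 with upper-quartile scaling, *Gli3* at -0.0066 with 0.1 ppm added and -0.71 with the mouse as a block, and *Ihh* at 0.038 with 5 ppm added, 0.021 with upper-quartile scaling and 0.41 with the mouse as a block. Scaled to the 6 mesenchymal genes *Foxf2* was at 0.73, *Ptch1* at 0.51 and *Ihh* at 0.77. For bottom over crypt *Gli1* was at -0.058 with 0.1 ppm added, *Gli3* at -0.070 and *Ihh* at 0.31 with the mouse as a block, and *Ptch1* at 1.19 and *Ihh* at 0.14 when scaled to the mesenchymal genes. For tip over bottom *Gli1* was at 0.083 and *Ihh* at -0.60 with 0.1 ppm added, and *Gli1* at 0.64 when scaled to the mesenchymal genes. Leaving out each mouse gave ranges of -0.19 to 0.29 for *Gli1* and -1.35 to 1.20 for *Ihh* in tip over crypt, of -0.36 to 1.04 for *Gli1*, -0.63 to 0.12 for *Ptch1* and -1.42 to 0.094 for *Ihh* in bottom over crypt, and of -0.76 to 0.17 for *Gli1* and -0.67 to 1.10 for *Ihh* in tip over bottom.

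For mesenchymal over epithelial cells 1850 genes were called, 5065 with no filter and 1150 to 2390 with each mouse left out, where 1150 is without mouse G. With the mouse as replicate block *Foxf2*, *Gli3* and *Ihh* passed the filter through the group in which they are high, so no call of theirs is given there. DESeq2 called 467 genes higher and 1457 lower, beside 775 and 1075. For crypt-list over tip-list cells 24 genes were called, 14 with DESeq2, 1 with no filter, 47 with the mouse as replicate block and 14 without mouse E. Without mouse A or G the tip list keeps 1 mouse, so no count is given. In cells led by the myofibroblast list the share with *Foxf2* was 19.2% to 25.0% and with *Ptch1* 23.1% to 25.0% with a mouse left out, where without mouse A 4 cells remain. Without the doublet gates they were 12.5% and 25%. DESeq2, the fit without a filter and the block could not be fitted there, since 1 mouse alone had at least 5 such cells.

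For DT over mock 32 genes were called, 143 with DESeq2, 635 with no filter, 1 with no batch term, 3 with the replicate number as replicate block, 0 within batch a, 5 within batch b and 3 to 41 with a mouse left out, where mock replicates 1 to 4 gave 3, 21, 10 and 11 and DT replicates 2 and 3 gave 7 and 9. *Ihh* was at 0.16 within batch b and at -0.11 to 0.11 with a mouse left out. The 6 stromal members have 2 to 32 UMIs in 325 mesenchymal cells, of which 168 are from 1 plate.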
